A study of Homo sapiens with 16 samples.

Results

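The genes LSM1 to LSM8 encode the Sm-like proteins of the LSM rings. They were taken by symbol from the Ensembl gene identifiers of the count files, and all 8 were found, 1 identifier each, among 58302. HEK293 cells, an established line of human embryonic kidney origin, gave 16 libraries, 4 independent samples per group, either of the cytoplasmic lysate (Input) or of the heavy sucrose gradient fractions 8 to 12, which were pooled (Polysome). The groups were Input Ctrl, Input siRNAG5, Polysome Ctrl and Polysome siRNAG5, where siRNAG5 cells had been transfected with 100 nM of a small interfering RNA (siRNA) against Gemin5, an RNA-binding protein of the SMN complex. Ctrl cells were without that siRNA. Their labels call them untreated while the study's protocol describes a control siRNA, and no age, clone or genetic change is given for the line.

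The siRNA strand printed in the sample labels and the strand complementary to it over its first 19 bases are shown because the seed of the latter, bases 2 to 8 in capitals, can also pair with other mRNAs.
siRNAG5, strand given in the labels: ccuuaaucaagaagagaaauu
Strand complementary to the mRNA: uUUCUCUUcuugauuaagg
The first strand, without its last pair of bases, was found unchanged in the canonical GEMIN5 transcript (GENCODE release 44). A match to the seed, AAGAGAA in the mRNA, was found 2 times in the 3' UTR of LSM3 and 3 times in that of LSM8, and in no other part of the 8 canonical transcripts. Of 11883 protein-coding genes tested in Input, 24.9% had at least 1 match in the 3' UTR, whatever its length. The 3' UTRs of LSM3 and LSM8 were the longest of the 8, at 3006 and 12033 nt, against 159 to 1923 nt for the others. LSM3 was the LSM gene with the largest change in Input and LSM8 the one with the smallest.

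LSM proteins share the Sm fold and close into heteroheptameric rings. The cytoplasmic ring, LSM1 to LSM7, binds the short oligo(A) or oligo(U) end of deadenylated mRNAs together with PATL1 and promotes removal of the cap and decay from the 5' end. The nuclear ring, LSM2 to LSM8, holds the oligo(U) end of U6 small nuclear RNA (snRNA) and takes part in the assembly of the U4/U6.U5 tri-snRNP of the spliceosome. The rings have LSM2 to LSM7 in common, and they differ by carrying either LSM1 or LSM8.

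Each library held 11145324 to 24511299 reads on genes, and a single member drew 990 to 8554 of them. The silenced gene, GEMIN5, was at 15.9 to 20.7 CPM (read counts relative to library size, scaled by the trimmed mean of M values, TMM) in Input Ctrl and at 6.22 to 7.46 CPM in Input siRNAG5, with a log2 FC of -1.40 (adjusted p = 3.11e-10), and its log2 FC in Polysome was -1.44 (adjusted p = 0.00477). Reads aligned to several places made up 4.88 to 6.04% in Input and 21.2 to 42.4% in Polysome. Replicates spread more in Polysome, with a common biological coefficient of variation of 0.216 against 0.0806 in Input. Summed CPM of 12 liver markers was 75 to 156 in the Polysome Ctrl libraries, 141 and 122 in Input Ctrl 3 and 4, and 0.33 to 2.4 in the other 10, with 6 of the 12 at 0 reads in each siRNAG5 group, while 6 of 6 HEK293 markers had reads in every library. In Polysome the liver reads cannot be told apart from the Ctrl group, and their part in the LSM values was not tested there. Polysome Ctrl 1, siRNAG5 1 and siRNAG5 4 stood apart on the third principal component (8.26% of the variance), at 35.3 to 38.5 against -26.3 to 4.95 for the rest.

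On GRCh38 (GENCODE release 44) LSM1 lies on chromosome 8 from 38163335 to 38176730 on the minus strand, and LSM8 on chromosome 7 from 118184144 to 118204035 on the plus strand. LSM2 is at 31797396 to 31806966 of chromosome 6 (minus), LSM3 at 14178817 to 14201122 of chromosome 3 (plus), and LSM4 at 18306236 to 18323112 of chromosome 19 (minus). LSM5 is at 32485338 to 32495283 of chromosome 7 (minus), LSM6 at 146175703 to 146200000 of chromosome 4 (plus), and LSM7 at 2321520 to 2328611 of chromosome 19 (minus). Their canonical transcripts have 4 or 5 exons and coding sequences of 240 nt (LSM6) to 417 nt (LSM4), which places them between the 1.64 and 7.68 percentiles of protein-coding genes. The rest of each mRNA differs much more, since the canonical transcript was 491 nt for LSM7 and 12384 nt for LSM8. Exons of LSM1 share 198 bases with BAG4 on the opposite strand, which had 85 to 578 reads, and the libraries were stranded. Annotated processed copies held few reads, at most 0.921% of the parent's for LSM3P3.

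LSM mRNAs differed in level by more than an order of magnitude per length. Per kilobase of the union of exons, Input Ctrl held 257 ± 14.7 CPM of LSM7 (SD, n = 4), 231 ± 11.6 of LSM2 and 193 ± 6.70 of LSM4. LSM3 followed at 114 ± 8.47 CPM per kilobase, LSM1 at 66.2 ± 2.69, LSM5 at 42.2 ± 2.04, LSM6 at 25.3 ± 2.01 and LSM8 at 9.17 ± 0.371. No neighbours in this order overlapped between libraries in Input Ctrl. In Input siRNAG5 LSM2 stood before LSM7 and their ranges overlapped, whereas the other 6 kept their places. The order depends on the length used. With the canonical transcript, LSM4 came before LSM2, and LSM1 (122 ± 4.97) and LSM3 (114 ± 8.47) overlapped, but LSM7 remained the highest and LSM6 and LSM8 the lowest.

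The first comparison asks how the LSM mRNAs in the cytoplasm changed when Gemin5 was silenced. All 8 had a log2 FC below 0 in Input, as had 46.5% of the 14134 genes tested, and the median of the 8 was -0.30 against 0.036 for all genes. LSM3 was called lower, a call being a log2 FC past 0.5 in size whose p, adjusted by Benjamini-Hochberg, was under 0.05. It was the 1 member so called of 8, and 6.02% of all genes were called lower. As these are bulk samples, fewer cells of a kind and less RNA per cell cannot be told apart. At an adjusted p under 0.05 of any size 6 of 8 fell, against 19.1% of all genes, and for 7 of 8 no siRNAG5 library reached a Ctrl library, which held for 19.1% of all genes.

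LSM1, the subunit that makes the ring cytoplasmic, was at 113, 114, 113 and 104 CPM in Input Ctrl 1 to 4 and at 77.5, 80.1, 86.1 and 81.8 CPM in Input siRNAG5 1 to 4. Every siRNAG5 library lay below every Ctrl library. The log2 FC was -0.43 (SE 0.067, edgeR adjusted p = 6.52e-06), a level of 74.0% of Ctrl. LSM8, which takes the place of LSM1 in the nuclear ring, was at 157, 167, 159.9 and 151 CPM in Input Ctrl and at 141, 157, 153 and 147 CPM in Input siRNAG5. These groups overlapped, and the log2 FC of -0.07 (SE 0.064, edgeR adjusted p = 0.393) did not pass.

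Among the subunits shared by both rings, LSM3 moved most. It was at 397, 416, 373 and 351 CPM in Input Ctrl and at 222, 238, 261 and 237 CPM in Input siRNAG5. The lowest Ctrl library was thus well above the highest siRNAG5 library, and the log2 FC was -0.67 (SE 0.067, edgeR adjusted p = 5.72e-09), or 62.9% of Ctrl. LSM4 went from 552 ± 19.2 CPM (SD, n = 4) to 415 ± 15.5, with the groups apart and a log2 FC of -0.40 (SE 0.059, edgeR adjusted p = 4.24e-06). LSM7 went from 433 ± 24.8 to 324 ± 19.3 CPM, also with the groups apart, and its log2 FC was -0.41 (SE 0.064, edgeR adjusted p = 9.21e-06). LSM4 and LSM7 fell by about as much as LSM1, and all 3 stayed short of the fold limit.

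The other shared subunits changed less. LSM5 was at 185 to 206 CPM in Input Ctrl and at 144 to 184 in Input siRNAG5, where replicate 1 was the lowest (log2 FC -0.19, edgeR adjusted p = 0.0329). LSM6 was at 93.8 to 112 CPM against 78.1 to 92.7 CPM (log2 FC -0.20, edgeR adjusted p = 0.0359), so that its groups came close without overlapping. LSM2 was at 234 to 256 CPM against 214 to 231 CPM, and its log2 FC of -0.13 did not pass (edgeR adjusted p = 0.101). The adjusted p under 0.05 of LSM5 and LSM6 rested on single libraries: both were lost without Input Ctrl 2 or without Input siRNAG5 1, LSM5 also without Input Ctrl 1 or Input Ctrl 3, and LSM6 without Input siRNAG5 4. The 6 members that fell did so too without Input Ctrl 3 and 4, the Input libraries with liver reads. In a fit of all 16 libraries, which shares the larger spread of Polysome, 1 member (LSM3) had an adjusted p under 0.05.

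**Figure D1:**
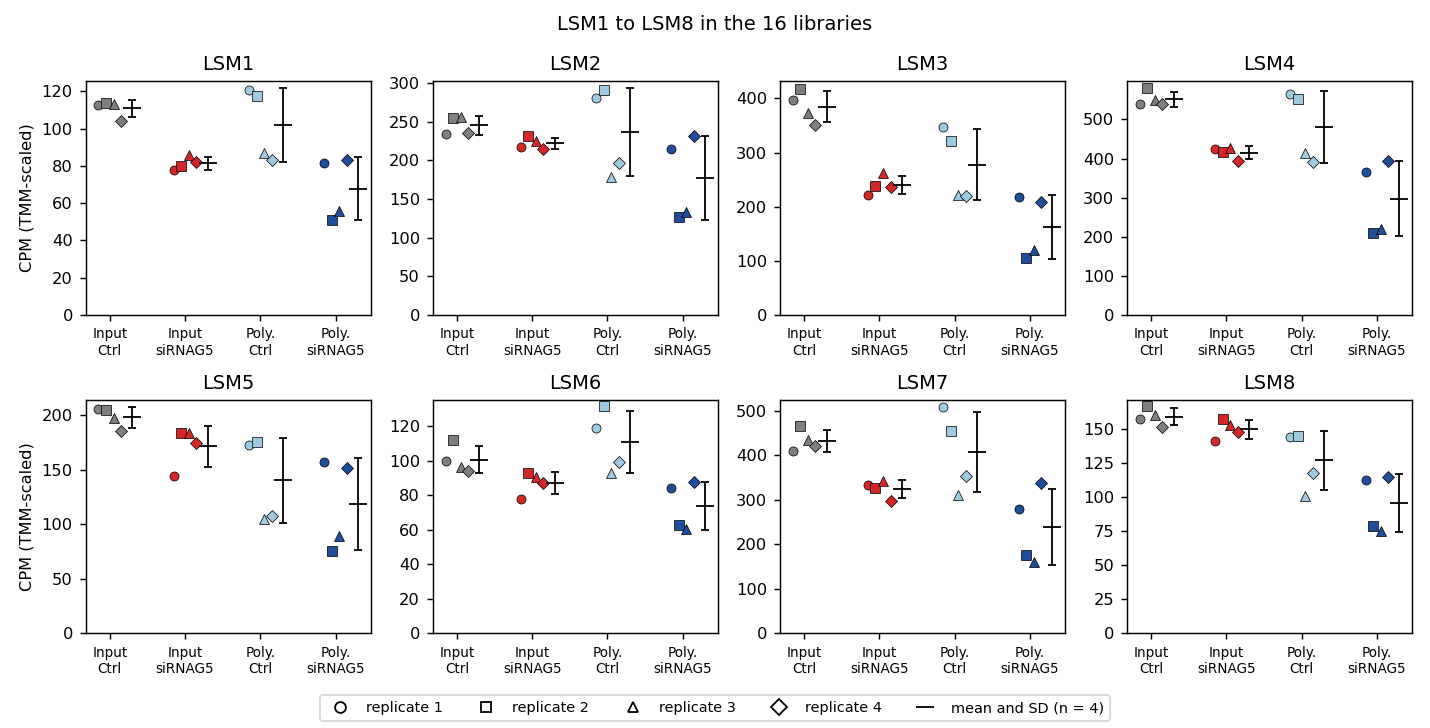
CPM (TMM-scaled, vertical axes from 0) of each LSM gene in the 16 libraries by group, with replicate numbers as symbols and the mean and SD (n = 4) beside them. In Input the siRNAG5 libraries lie below the Ctrl libraries for 7 genes and overlap for LSM8, and in Polysome replicates 1 and 2 of Ctrl and 1 and 4 of siRNAG5 are the higher ones throughout.

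Since LSM1 and LSM8 are what distinguishes the rings, their ratio was taken within each library, where scaling between libraries cancels. In Input Ctrl there were 0.717, 0.683, 0.707 and 0.690 LSM1 reads per LSM8 read, and in Input siRNAG5 0.55, 0.511, 0.563 and 0.555. Every siRNAG5 library was below every Ctrl library. In Polysome the ratio was 0.839, 0.814, 0.865 and 0.707 in Ctrl and 0.723, 0.652, 0.740 and 0.725 in siRNAG5, and there Ctrl 4 fell among the siRNAG5 libraries. Per kilobase of the union of exons these ratios correspond to 7.06 to 7.41 in Input Ctrl and 5.28 to 5.82 in Input siRNAG5. The level of this ratio depends on the lengths used for LSM1 and LSM8. No test was run on it, because both members were chosen with results known.

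**Figure D2:**
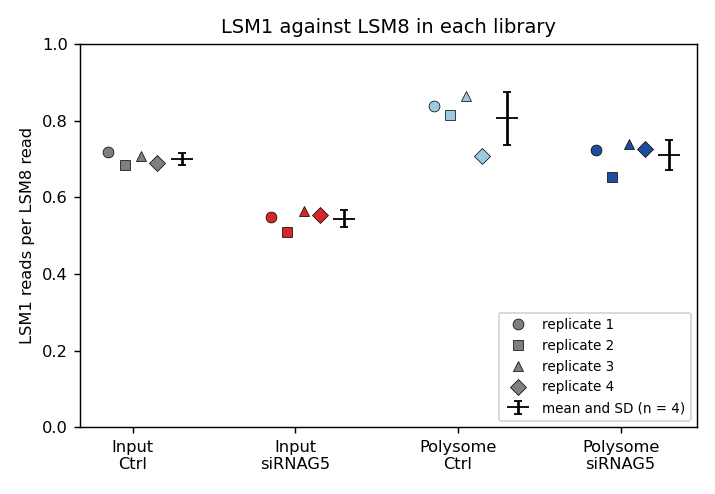
LSM1 reads per LSM8 read in each of the 16 libraries (vertical axis from 0), with replicate numbers as symbols and the mean and SD of each group (n = 4). Input siRNAG5, at 0.511 to 0.563, lies below Input Ctrl, at 0.683 to 0.717, and the Polysome groups overlap through Ctrl 4 at 0.707.

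The second comparison concerns the LSM mRNAs in polysomes. All 8 again had a log2 FC below 0, as had 46.9% of the 14420 genes tested, with a median of -0.55 against 0.034 for all genes. None was called by edgeR, against 4% of all genes called lower. At an unadjusted p under 0.05, 5 members were lower (LSM1, LSM3, LSM4, LSM6 and LSM7), against 13.3% of all genes, and all 5 were beyond the fold limit, against 9.31%. Groups did not overlap for LSM3 and LSM6, which was so for 10% of all genes.

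LSM3 was at 347, 322, 221 and 220.2 CPM in Polysome Ctrl 1 to 4 and at 217, 104, 119.9 and 208 CPM in Polysome siRNAG5 1 to 4. The highest siRNAG5 library came close to the lowest Ctrl library without reaching it, and the log2 FC was -0.74 (SE 0.26, edgeR adjusted p = 0.0975). LSM7 was at 508, 456, 311 and 355 CPM in Ctrl and at 279, 177, 161 and 339 CPM in siRNAG5. Here siRNAG5 4 exceeded Ctrl 3, and the log2 FC was -0.73 (SE 0.26, edgeR adjusted p = 0.0912). LSM6 was at 119, 132, 92.7 and 99.5 CPM in Ctrl and at 84.3, 63.0, 60.4 and 87.7 CPM in siRNAG5. Its groups were apart, and its log2 FC was -0.55 (SE 0.17, edgeR adjusted p = 0.0709), the smallest adjusted p of the 8.

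For LSM1 the Polysome values were 121, 118, 87.1 and 82.9 CPM in Ctrl and 81.3, 51.2, 55.5 and 82.965 CPM in siRNAG5, so that Ctrl 4 and siRNAG5 4 were at the same level (log2 FC -0.56, SE 0.20, edgeR adjusted p = 0.104). LSM8 was at 144.1, 144.5, 101 and 117 CPM in Ctrl and at 112, 78.4, 75.1 and 114 CPM in siRNAG5, with Ctrl 3 below the higher siRNAG5 libraries (log2 FC -0.38, SE 0.19, edgeR adjusted p = 0.220). The other 3 overlapped as well. LSM4 was at 391 to 566 CPM against 210.01 to 393 CPM (log2 FC -0.66, edgeR adjusted p = 0.102), LSM2 at 179 to 290.2 against 127 to 232 (log2 FC -0.39, edgeR adjusted p = 0.322), and LSM5 at 105 to 175 against 75.5 to 157 (log2 FC -0.21, edgeR adjusted p = 0.653). LSM5 had the smallest change of the ring in Polysome, and LSM8 the smallest in Input.

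**Figure D3:**
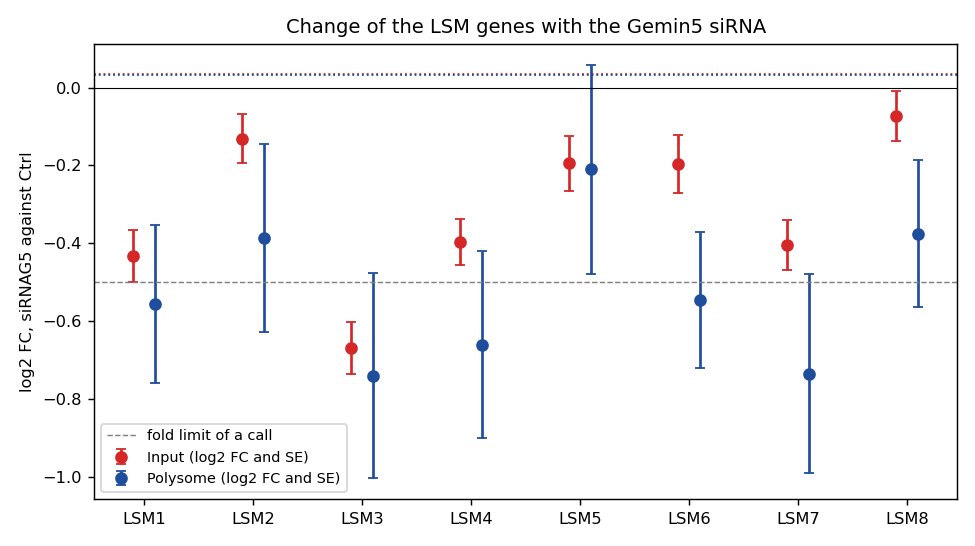
Log2 FC of siRNAG5 against Ctrl for each LSM gene in Input and in Polysome, with SE as bars, the fold limit of 0.5 as a dashed line and the medians of all genes (0.036 and 0.034) as dotted lines. All 16 points lie below 0, LSM3 is lowest in both fractions, and the Polysome bars are the longer ones.

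How many members passed in Polysome depended on the fit. DESeq2 called 3 (LSM3, LSM6 and LSM7, against 7.64% of all genes called lower), edgeR without the filter on low counts 3 (LSM3, LSM4 and LSM7, against 3.44%), and edgeR with 1 surrogate variable 4 (LSM3, LSM4, LSM6 and LSM7, against 9.9%). A fit of all 16 libraries called 5, those with an unadjusted p under 0.05, against 10.2%. Without Polysome Ctrl 1, siRNAG5 1 and siRNAG5 4, all but LSM5 were called, against 12.1% of all genes. That choice leaves 3 Ctrl libraries, among them Ctrl 2, against the 2 siRNAG5 libraries (2 and 3) in which the LSM genes were lowest. Leaving out siRNAG5 4 alone brought in LSM7, and no other single library changed the count of 0.

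The spread in Polysome was common to the whole ring. In Ctrl 1, Ctrl 2, siRNAG5 1 and siRNAG5 4 all 8 members were above the mean of their group, and in Ctrl 3, Ctrl 4, siRNAG5 2 and siRNAG5 3 none was. The mean of the 8 on the log2 CPM scale, centred per gene over the 16 libraries, was 0.39, 0.37, -0.18 and -0.12 in Polysome Ctrl 1 to 4 and -0.13, -0.87, -0.82 and -0.067 in Polysome siRNAG5 1 to 4. It ran from 0.26 to 0.43 in Input Ctrl and from -0.062 to 0.083 in Input siRNAG5. The same 4 Polysome libraries were those nearer to Input on the first principal component of the genes outside the ring. Within the libraries nearer to Input, both siRNAG5 values were below both Ctrl values for all 8 members, and likewise within the libraries farther away; both held together for 22.5% of all genes. These sets of 2 against 2 were made from the data and carry no test. The members varied together in Polysome, so 8 of 8 are not 8 separate results.

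The share of reads aligned to several places was 27.6, 22.1, 21.2 and 32.8% in Polysome Ctrl 1 to 4. In Polysome siRNAG5 1 to 4 it was 42.4, 29.0, 26.3 and 26.6%. Other mRNAs with short coding sequences were higher in the same libraries of each group as the LSM genes. The median of genes with at most 450 nt of coding sequence, centred in the same way and without the LSM genes, was 0.36, 0.33, -0.13 and -0.025 in Polysome Ctrl 1 to 4 and -0.023, -0.57, -0.56 and 0.049 in Polysome siRNAG5 1 to 4. The part of either in the LSM values was not tested.

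**Figure D4:**
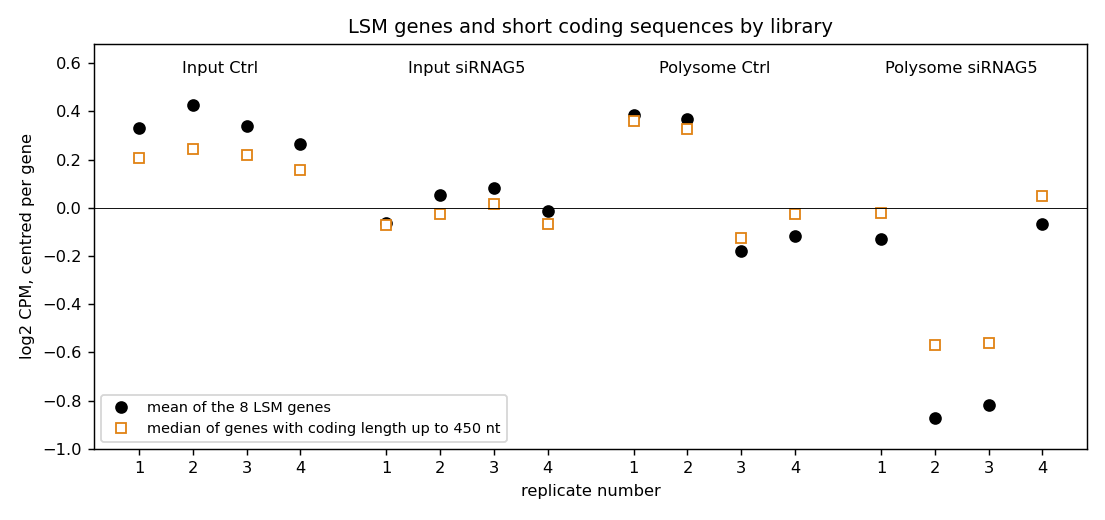
Log2 CPM centred per gene (vertical axis) in each library, as the mean of the 8 LSM genes (filled circles) and as the median of other genes with coding length up to 450 nt (open squares). Both fall together in Polysome siRNAG5 2 and 3, to -0.87 and -0.82 for the LSM genes, and Polysome Ctrl 3 and 4 lie below Ctrl 1 and 2.

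Members also varied together once group means were removed. Over the 16 libraries the 28 pairwise correlations of log2 CPM had a median of 0.950 and a lowest value of 0.881 (LSM6 with LSM7). In the 8 Polysome libraries alone the median was 0.972 (0.930 to 0.993), and in the 8 Input libraries alone it was 0.602, from -0.024 for LSM4 with LSM5 to 0.980 for LSM4 with LSM7. LSM4 and LSM7 thus ran closest in Input. These values are descriptive, since genes of a library share its depth and the Polysome libraries the split above.

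To ask whether the LSM mRNAs changed more in Polysome than in Input, the difference of both changes was fitted over all libraries. All 8 differences were below 0, as were 59% over 14958 genes, with a median of -0.28 against -0.065. LSM6 had the largest, -0.38 (SE 0.19, edgeR adjusted p = 0.714), then LSM7 at -0.35 (SE 0.27) and LSM8 at -0.33 (SE 0.20). LSM5 had the smallest, -0.035 (SE 0.30). No member passed even an unadjusted p under 0.05 in edgeR, and none was called by DESeq2. Of all genes, edgeR called 0%, an unadjusted p under 0.05 was found for 701 lower (4.69%) and 388 higher (2.59%), and DESeq2 called 29. The sign was not stable for every member, since with 1 surrogate variable LSM1 (0.064), LSM3 (0.17) and LSM5 (0.24) were above 0. Without Polysome Ctrl 1, siRNAG5 1 and siRNAG5 4, 5 members were called (LSM2, LSM4, LSM6, LSM7 and LSM8), against 4.3% of all genes called lower.

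Levels in Polysome were then set against Input within each treatment. By the study's account both fractions were taken from individual lysates, but the labels do not say that equal numbers mark the same lysate, so the values with the replicate number as a block are given as well. CPM is relative to the other mRNAs of a library, so a lower value means a smaller share of the polysomal mRNA. In Ctrl, 7 of 8 members were below 0, against 51.8% of all genes, LSM6 was at 0.15, and none was called, against 18.8% of the 13666 genes called lower. LSM5 (log2 FC -0.49, SE 0.17, edgeR adjusted p = 0.0263) and LSM3 (log2 FC -0.46, SE 0.16, edgeR adjusted p = 0.0286) had an adjusted p under 0.05, against 23.2% of all genes, and the groups were apart for LSM3, LSM5 and LSM8, also against 23.2%. Both lost that p without any 1 of Input Ctrl 1, 2 or 3 or Polysome Ctrl 3 or 4, and without Input Ctrl 3 and 4 together, and both passed the fold limit as well without Input Ctrl 4, Polysome Ctrl 1 or Polysome Ctrl 2. With the replicate block LSM5 was called (log2 FC -0.53, edgeR adjusted p = 0.00704), and 3 members (LSM3, LSM5 and LSM8) had an adjusted p under 0.05.

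By replicate number the log2 ratio of Polysome to Input in Ctrl was -0.20, -0.37, -0.75 and -0.67 for LSM3, -0.25, -0.22, -0.91 and -0.78 for LSM5, and 0.25, 0.24, -0.060 and 0.084 for LSM6. LSM3 and LSM5 were below 0 in all 4 and LSM6 in 1 of 4. The lower values of LSM3 and LSM5 came from replicates 3 and 4, the Polysome Ctrl libraries in which the whole ring was low.

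In siRNAG5 all 8 were below 0, against 52.4% of all genes, and LSM8 was called (log2 FC -0.57, SE 0.14, edgeR adjusted p = 0.00510), against 21.2% of the 14795 genes called lower. It was at 141 to 157 CPM in Input siRNAG5 and at 75.1 to 114 CPM in Polysome siRNAG5, with no overlap. LSM3 was apart as well, as were 27.5% of all genes. LSM8 passed the fold limit no longer without Polysome siRNAG5 2 or without Polysome siRNAG5 3. Without Polysome siRNAG5 1, 4 members were called (LSM3, LSM4, LSM5 and LSM8), and 3282 of all genes were called lower. Without Polysome siRNAG5 4, 5 members were called (those and LSM7), and 3239 of all genes were called lower. The main fit had 3132 genes called lower. With the replicate block LSM3 (log2 FC -0.55, edgeR adjusted p = 0.0416) was called beside LSM8 (log2 FC -0.60, edgeR adjusted p = 0.00809).

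Proteins that work with the rings were read from lists. For decapping and decay from the 5' end, 9 of 9 genes were tested and none was called in Input, where 6.02% of all genes were called lower and 10.5% higher, or in Polysome, where these shares were 4% and 3.95%. PATL1, which binds the cytoplasmic ring, had a log2 FC of -0.45 in Input (edgeR adjusted p = 0.0154) and 0.099 in Polysome (edgeR adjusted p = 0.763), and DCP2, the decapping enzyme, had 0.37 (edgeR adjusted p = 0.0102) and 0.43 (edgeR adjusted p = 0.120). The median of the list was -0.049 in Input and 0.099 in Polysome. Of 13 deadenylase genes 5 were below 0 in Input, with a median of 0.046. At an adjusted p under 0.05, 4 were lower, against 19.1% of all genes, without passing the fold limit. They were the CCR4-NOT subunits CNOT2 (-0.42), CNOT7 (-0.39), CNOT9 (-0.38) and CNOT3 (-0.23). In the list 1 was called higher, against 10.5% of all genes, namely PAN2, a subunit of the PAN2-PAN3 deadenylase (log2 FC 0.65, edgeR adjusted p = 0.000168), and 1 in Polysome, against 3.95%, namely CNOT6L, a catalytic subunit of CCR4-NOT (log2 FC 0.78, edgeR adjusted p = 0.0314), whose groups overlapped. None of 6 genes of oligouridylation and histone mRNA decay was called in either fraction, where the same shares of all genes apply.

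Around the nuclear ring most genes were below 0. Of 22 U6 and tri-snRNP genes 16 were below 0 in Input, with a median of -0.22, 11 had an adjusted p under 0.05 and were lower, against 19.1% of all genes, and 3 were higher, against 17.9%. Higher were TUT1, the terminal uridylyltransferase of U6 (0.45, edgeR adjusted p = 0.00721), PRPF8 (0.40) and the helicase SNRNP200 (0.39), none past the fold limit. Called lower were 4, against 6.02% of all genes, among them USB1, which trims the oligo(U) end of U6 (log2 FC -0.73, edgeR adjusted p = 4.35e-07), SNRNP40 of the U5 snRNP (-0.60, adjusted p = 3.03e-08) and SNU13, which binds U4 snRNA (-0.55, adjusted p = 2.36e-08). In Polysome 21 of the 22 were below 0, against 46.9% of all genes, and 3 were called lower, against 4%, namely PRPF31 (-0.74), PPIH (-0.60) and CD2BP2 (-0.58). All 7 Sm core genes, whose proteins form the related ring on the other spliceosomal snRNAs, had an adjusted p under 0.05 in Input, against 19.1% of all genes lower, with log2 FC between -0.55 and -0.27, and 1 of them, SNRPG (-0.55), was past the fold limit, against 6.02%. In Polysome they were between -0.87 and -0.56, and SNRPF (-0.87, edgeR adjusted p = 0.0204) was called, against 4% of all genes. The LSM median of -0.30 in Input and -0.55 in Polysome stands beside -0.44 and -0.66 for the Sm core.

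The methylosome methylates Sm proteins and LSM4, and 5 of its genes were listed. In Input 4 of them were below 0 and 2 were called lower, against 6.02% of all genes. In Polysome 5 were below 0 and 2 were called lower, against 4%. Called in both were WDR77 (-1.10, edgeR adjusted p = 2.07e-11 in Input, and -1.10, edgeR adjusted p = 0.00638 in Polysome) and COPRS (-0.56 and -0.88). CLNS1A was at 0.053 in Input. The 8 other proteins with an Lsm fold had a median of 0.087 in Input and 3 of them were below 0. At an adjusted p under 0.05, 3 were lower, against 19.1% of all genes, and 1 was higher, against 17.9%. The higher one was ATXN2L (0.33, edgeR adjusted p = 0.00470). ATXN2L and LSM12 (-0.46, edgeR adjusted p = 0.000391) did not pass the fold limit, and 2 were called lower, against 6.02% of all genes. NAA38, a subunit of the NatC acetyltransferase, was called lower in Input (-0.66, edgeR adjusted p = 5.72e-09) and was the 1 called in Polysome (-1.02, edgeR adjusted p = 0.0367), against 4%. LSM10, the U7 snRNP subunit, was called in Input (-0.55, edgeR adjusted p = 2.16e-07). Gene lists were written with results known, and their counts describe these libraries.

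Between the fractions some of these partners moved by more than any LSM gene. Of the 9 decapping genes 4 were called higher and 1 lower in Polysome than in Input in Ctrl, and as many in siRNAG5, where 20.8% and 23.9% of all genes were called higher. DDX6, the helicase of the decapping complex, was at 1.80 on the log2 scale in Ctrl and 2.31 in siRNAG5, and EDC4, its scaffold, at -1.89 and -1.93. PATL1 was at 1.55 and 2.15. PRPF8, the largest protein of the tri-snRNP, was at -2.36 and -2.94, and of the 22 genes of its list 6 were called lower and 1 higher in Ctrl, 8 lower and 2 higher in siRNAG5, where 18.8% and 21.2% of all genes were called lower. The LSM genes stayed between -0.57 and 0.15.

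Because all LSM coding sequences are short, the changes were placed beside those of other genes of their length. The 549 other protein-coding genes with 240 to 417 nt had a median log2 FC of -0.21 in Input, where 71.4% were below 0 and 15.8% were called lower, and the 558 tested in Polysome had a median of -0.41, with 76.7% below 0 and 12.7% called lower. Genes with over 3000 nt had medians of 0.29 and 0.22. The LSM medians of -0.30 and -0.55 were thus on the side of short genes and somewhat below them, and the median of 0.036 over all genes is not the nearest reference. For the difference between the fractions the short genes had a median of -0.18, and the ring -0.28. For Polysome against Input in Ctrl the short genes had a median of -0.030, 54.4% below 0 and 11.1% called lower, and the ring a median of -0.15. In siRNAG5 they had a median of -0.15, 63.3% below 0 and 17.6% called lower, and the ring a median of -0.39. LSM1, LSM3, LSM4 and LSM7, with 306 to 417 nt, had log2 FC of -0.67 to -0.40 in Input and of -0.74 to -0.56 in Polysome. LSM2, LSM5, LSM6 and LSM8, with 240 to 288 nt, had -0.20 to -0.07 and -0.55 to -0.21. Other genes of up to 300 nt had medians of -0.15 in Input and -0.34 in Polysome. How much coding length contributes was not tested.

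**Figure D5:**
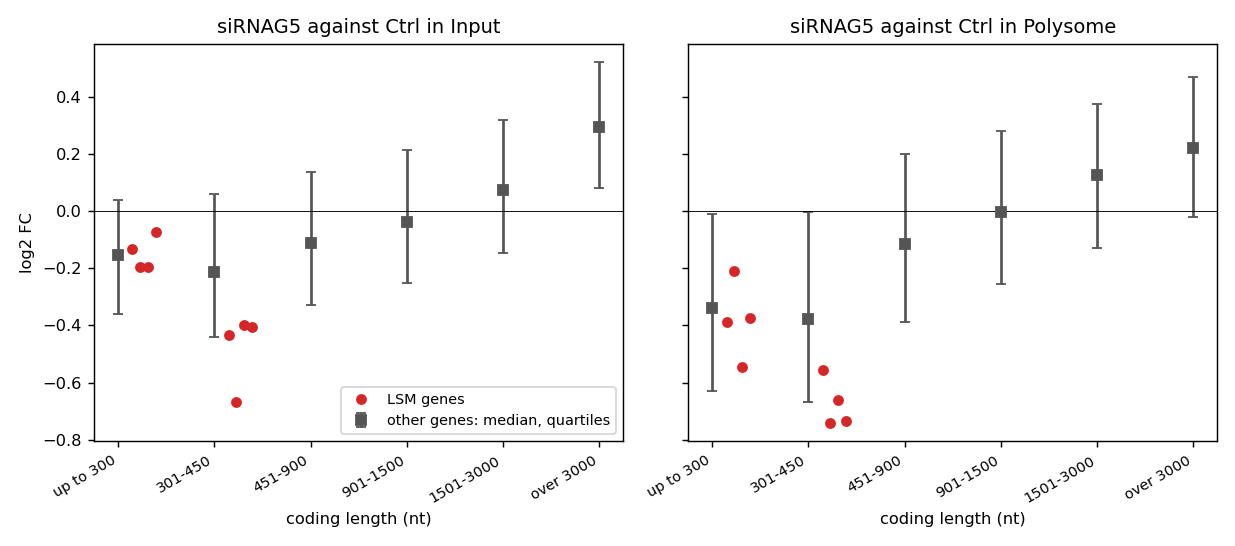
Log2 FC of siRNAG5 against Ctrl by class of coding length (nt, horizontal axis) in Input and in Polysome, with the median and quartiles of other protein-coding genes as squares with bars and the LSM genes as red points. Medians rise with length from the class of 301 to 450 nt on, and the LSM genes of the class 301 to 450 nt lie below its median of -0.21 in Input and -0.38 in Polysome. In the class up to 300 nt, LSM2 and LSM8 lie above its median of -0.15 in Input and LSM5 above that of -0.34 in Polysome. The other LSM genes of that class lie below.

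Outside the ring, the genes most like it were sought among 14950 by their correlation with the LSM mean. Over the 16 libraries these were ATOX1 (r = 0.992), a copper chaperone, COX7C (r = 0.992), a cytochrome c oxidase subunit, HEBP2 (r = 0.991), CHCHD1 (r = 0.989), a mitochondrial ribosomal protein, and WDR83OS (r = 0.988). After group means were subtracted they were COPRS (r = 0.992), UQCRH (r = 0.992), H2AZ2 (r = 0.992), HEBP2 (r = 0.991) and CHCHD1 (r = 0.990). Such values were common, because 9.57% of genes in the first case and 11.8% in the second had r above 0.8.

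The promoters of the members were read from RefSeq (GRCh38.p14, 250 bases before to 50 after the start). There were 7 promoters of 6 members, namely LSM2, LSM3, LSM4, LSM5 with 2 starts, LSM7 and LSM8. Those of LSM1 and LSM6 were not analysed here. The 100 bases before the start are shown for LSM3, which fell most in Input, and for LSM2 and the upstream start of LSM5, which changed less, with the motif matches in capitals (TTCCGG, the core of ETS factors, or CCCCGCCC, the GC box, on either strand). None of these stretches overlaps an annotated exon.
LSM3, chr3:14178717-14178816, + strand: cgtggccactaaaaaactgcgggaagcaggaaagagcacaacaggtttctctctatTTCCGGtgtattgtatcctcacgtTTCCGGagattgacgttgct
LSM2, chr6:31806967-31807066, - strand: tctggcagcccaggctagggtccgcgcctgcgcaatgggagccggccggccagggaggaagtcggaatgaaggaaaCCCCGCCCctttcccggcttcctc
LSM5, chr7:32495284-32495383, - strand: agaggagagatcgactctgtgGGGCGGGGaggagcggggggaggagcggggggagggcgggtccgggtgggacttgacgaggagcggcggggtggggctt
The stretch of LSM3 holds 2 ETS cores, and those of LSM2 and LSM5 a GC box each. Over the full promoters, TTCCGG or CCGGAA was found for LSM3, LSM5 and LSM8, against 17.2% of 35116 promoters, and CCCCGCCC or GGGCGGGG for LSM2, LSM3, LSM4 and LSM5, against 22.8%. CCAAT or ATTGG was found for LSM4, LSM5 and LSM8, against 34.6%. AAGATGGC or GCCATCTT, the core of YY1, was found for LSM7 alone, against 2.89%. None of these motifs was found in all 6 members. A RefSeq start at C that opens a run of at least 5 pyrimidines, resembling TOP mRNAs, was found for LSM2 (9 pyrimidines) and LSM8 (5). It was found for 4.07% of all promoters. For LSM4, LSM7 and LSM8, 36, 97 and 20 of the 100 bases before the RefSeq start lie in annotated exons. Their GENCODE starts are upstream of the RefSeq starts, and the bases there were not examined for such a run. LSM2 and LSM8 had the smallest changes in Input, while LSM5, whose starts are at A, had the smallest in Polysome. A part of such starts in the changes was not tested.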

How the data were processed

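RNA of 16 libraries, 4 per group, was measured as read counts per gene. Libraries were stranded and poly(A)-selected. The authors used STAR 2.5.3a on GRCh38 with the annotation of Ensembl 91, obtained gene counts from QoRTs, and deposited these raw counts, 1 file per library. Reads that aligned to no gene, to more than 1 gene or to several places were listed apart (0.667 to 1.33%, 4.14 to 7.41% and 4.88 to 42.4%) and left out. Groups came from the sample labels.

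Of 58302 identifiers, 57532 were named by GENCODE release 44, a later annotation of the same build. Counts were filtered with filterByExpr and TMM-scaled, and tested with the quasi-likelihood test of edgeR 4.0.16 (R 4.3.3), each comparison on its own libraries with no replicate block and Benjamini-Hochberg adjustment over all genes tested. Calls required both an adjusted p under 0.05 and a size of log2 FC over 0.5. CPM came from 1 TMM scaling of the 16 libraries, and log2 CPM used a prior count of 2. Named genes were the members, GEMIN5, up to 3 called genes with separate groups per list and comparison, and the 5 most alike. CNOT2, CNOT3, CNOT7, CNOT9, CNOT6L, PATL1, DCP2, TUT1, PRPF8, SNRNP200, ATXN2L and LSM12 in the siRNAG5 comparisons were chosen after their values were seen. So was PATL1 between fractions in Ctrl. The members and lists were chosen with earlier results of these data known.

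Alternatives were RLE size factors, no filter, DESeq2 1.42.0 without shrinkage, the replicate block, 1 surrogate variable (sva 3.50.0), all 16 libraries in 1 fit, the unadjusted p, another length, leaving out libraries, and, added after the data were seen, leaving out Input Ctrl 3 and 4. Scripts were tested on simulated counts. The part of counting error at these depths was not tested.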

Additional observations from a re-analysis of the deposited data

Results flagged for a closer look

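One value stood apart from its group by Dixon's criterion, LSM1 in Input Ctrl 4 at 104 CPM, while the other 3 libraries of the group were at 113 to 114 CPM. Its gap to the nearest library was 0.874 of the range of the group, above the 95% critical value for 4 samples. Chance flags about 1 in 20 groups, and 36 were examined. Without Input Ctrl 4, LSM1 still had an adjusted p under 0.05 in Input with edgeR.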

How the results depend on the processing

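The members had at least 990 reads in each library. The common biological coefficient of variation was 0.216 in Polysome and 0.0806 in Input. How far depth or spread limited the calls was not tested. Ctrl and siRNAG5 Polysome libraries fell into sets that cross the treatments, and liver reads cannot be told apart from Ctrl in Polysome. Under all alternatives the 8 members kept a log2 FC below 0 in Input and in Polysome, and RLE size factors changed no direction or call of a member. Shares of all genes by adjusted p alone were taken for the main fits only. Member counts by that rule in the alternatives below therefore have no such reference. The cause of the moves below was not tested.

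In Input, 1 member instead of 6 had an adjusted p under 0.05 in the fit of all 16 libraries, and 4 to 6 with single libraries left out, LSM3 being called each time. In Polysome, members called (and with an adjusted p under 0.05) were 0 (0), but 4 (7) with 1 surrogate variable, 3 (3) with DESeq2, 5 (6) with 16 libraries in one fit, 3 (3) without the filter, 5 (5) at the unadjusted p, 7 (7) without Polysome Ctrl 1, siRNAG5 1 and siRNAG5 4, and 0 to 1 (0 to 1) with single libraries left out. Genes called there numbered 1146, against 2999, 1941, 2597, 1766, 2942, 3115 and 189 to 1523 in the same order. The lowest count came without Ctrl 2 (113 lower, 76 higher) and the highest without siRNAG5 4 (836 and 687). Leaving out Ctrl 4, siRNAG5 1, siRNAG5 2 or siRNAG5 3 gave 581, 518, 512 and 534.

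For the difference between fractions, genes called were 0 but 575 with 1 surrogate variable, 29 with DESeq2, 57 without the filter, 789 at the unadjusted p, 9 without Input Ctrl 3 and 4, 765 without the 3 Polysome libraries (then 5 members, 5 by adjusted p alone), and 0 to 1 with single libraries left out. Signs turned for LSM1 (0.064), LSM3 (0.17) and LSM5 (0.24) with the surrogate variable, for LSM5 (0.017) without Input Ctrl 3 and 4, and with single libraries left out, where LSM3 ran from -0.26 to 0.090 and LSM5 from -0.20 to 0.15.

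For Polysome against Input in Ctrl, members with an adjusted p under 0.05 went from 2 to 0 with 16 libraries in one fit or without Input Ctrl 3 and 4, and ran from 0 to 3 with single libraries left out. Members called there were 2 without the 3 Polysome libraries, of which Ctrl 1 is in this fit, and 0 to 2 with single libraries left out. With single libraries left out LSM2 ran from -0.16 to 0.092 and LSM7 from -0.20 to 0.050. Of all genes, 2566 were called lower in the main fit, 2752 without the 3 Polysome libraries, and 2309 to 2752 with single libraries left out. In siRNAG5, members called (and by adjusted p alone) were 1 (1), but 3 (4) with 16 libraries in one fit and 6 (8) without the 3 Polysome libraries. By adjusted p alone they were 6 with 1 surrogate variable and 3 without the filter. An unadjusted p under 0.05 was found for 3 members in the main fit. Single libraries left out gave 0 to 5 members (1 to 5). Of all genes, 3132 were called lower in the main fit, 3803 with 16 libraries in one fit and 3604 without the 3 Polysome libraries. With single libraries left out they were 2791 to 3282.

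The replicate block was not in the design. Same-numbered libraries did not all deviate together (correlations of -0.034 to 0.069 in Input, -0.53 to 0.48 in Polysome, -0.074 to 0.19 between fractions in Ctrl and -0.21 to 0.22 in siRNAG5), although both fractions come from individual lysates. With the block, 1 member was called (3 by adjusted p alone) in Polysome against Input in Ctrl and 2 (2 by adjusted p alone) in siRNAG5. Of all genes, 2690 and 3250 were called lower there. For siRNAG5 against Ctrl in Polysome, 558 genes were called lower with the block.

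The log2 ratio of LSM1 to LSM8 per length became 3.26, 2.90, 3.46 and 3.28 with the canonical transcript, in place of 2.85, 2.49, 3.05 and 2.87 for Input Ctrl, Input siRNAG5, Polysome Ctrl and Polysome siRNAG5. The median correlation of the members was 0.602 in the Input libraries alone.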
